A study of Mus musculus with 36 samples.

Results

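Single brains of mouse embryos that lacked full-length TET1 (KO) were compared with those of embryos that kept 1 functional Tet1 allele (HET), all from dams on the control diet of 3 ppm folic acid (FA). The comparison took the 5 KO and 3 HET embryos of that diet from the 36 embryos of the series, and used the 1113043 autosomal CpGs covered by at least 5 reads in all 8. The study asked how maternal FA and loss of TET1 shape the methylome of the embryo's brain, and its other embryos were wild type (WT) or came from dams fed 30 or 0.1 ppm FA. The libraries were oxidative bisulfite reduced representation libraries of DNA cut with MspI and TaqI, in which 5-methylcytosine (5mC) alone reads as cytosine and its oxidised forms do not.

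All embryos were of the strain labelled 129S6.cg Tet1<tm1Koh>, at E11.5, and each library was made from the whole brain of 1 embryo. The allele is a germline mutation carried in every cell of embryo and, as HET, in the dam, so HET and KO embryos shared a dam with 1 functional copy. The paper found no full-length Tet1 transcript in KO brains of this stage, but low levels of a short isoform from a downstream start. By Western blot it detected TET1 protein in neither WT nor KO brains at E11.5. The diets were custom diets that also held an antibiotic. The KO group held 3 embryos of normal phenotype, KO replicate 4 labelled inHB and KO replicate 5 labelled NTD (neural tube defect), while all 3 HET embryos were labelled normal. The 8 embryos came from litters 40, 42, 45 and 57 by their labels. Litter 40 held KO replicates 1 and 2 and HET replicate 2, litter 42 held KO replicate 4 and HET replicate 1, litter 45 held KO replicate 3 and HET replicate 3, and litter 57 held KO replicate 5.

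TET1 is a dioxygenase that oxidises 5mC to 5-hydroxymethylcytosine and further forms, which can then be replaced by unmodified cytosine. Its CXXC domain binds DNA rich in unmethylated CpGs, and in embryonic cells the enzyme is known for occupying CpG-rich promoters and their borders. TET2 and TET3 are related enzymes that can carry out the same reaction. In a whole brain, a change in the makeup of cell types and a change of 5mC within a cell type cannot be told apart.

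The 8 libraries held between 25.9 and 43.42 M CpG calls (median 30.2 M), and the mean coverage of a listed CpG was between 12.1 and 18.8 reads. Promoters of the neural genes Sox1, Sox2, Nes, Pax6 and Otx2 were at no more than 1.85% methylation in any of these embryos, which describes the labelled tissue but does not show expression. Among genes of other cell types, the promoters of Hbb-bh1, Ptprc and Cdh5 had no CpG covered in all 8 embryos.

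Both libraries of litter 42 had sex-chromosome reads unlike those of other embryos with their sex label. HET replicate 1, labelled male, had 90.4 Y-linked calls per 1e6 calls, beside 67.0 to 73.6 in the embryos labelled female, and an X-linked share of calls of 2.61%, as in females (2.48 to 2.67%). KO replicate 4, also labelled male, had 471 Y-linked calls per 1e6 but an X-linked share of 2.35%, where the other KO embryos labelled male had 1.28 and 1.34%. All 3 HET libraries thus had the X-linked share of females. The region counts, the mean CpG methylation and the calls of named regions were also computed without both embryos of litter 42. Other results below include them.

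In these brains, KO embryos had more 5mC than HET embryos. The mean methylation of a CpG was 38.02, 38.69, 37.85, 38.11 and 37.55% in the KO embryos and 36.02, 36.52 and 35.98% in the HET embryos. Every KO embryo was above every HET embryo. The group means were 38.05% ± 0.417 (SD, n = 5) and 36.17% ± 0.299 (SD, n = 3), a difference of 1.87 points (two-sided exact permutation p = 0.0357, the smallest that 5 against 3 embryos can give, and 0.0446 after Benjamini-Hochberg adjustment over 10 tests of values per embryo). At the 1068297 of these CpGs also covered in the 4 WT embryos of this diet, WT embryos were at 33.9 to 34.53%, HET embryos at 34.97 to 35.48% and KO embryos at 36.5 to 37.6%, with no overlap between neighbouring genotypes.

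The higher mean came with a smaller share of CpGs at the low end and a larger share at the high end. These are net shares, and single CpGs were not followed from one class to another. CpGs below 20% methylation made up 56.1% ± 0.143 of the total in KO (n = 5) and 57.7% ± 0.0626 in HET embryos (n = 3; difference -1.62 points, two-sided exact permutation p = 0.0357). CpGs above 80% made up 32.8% ± 0.661 in KO and 30.5% ± 0.513 in HET embryos (difference 2.31 points, two-sided exact permutation p = 0.0357). The share between 20 and 80% was 11.1% in KO and 11.8% in HET embryos (difference -0.688 points, two-sided exact permutation p = 0.107). The mean rests on CpGs shared by all embryos: averaged over each embryo's own covered CpGs the difference was -0.192 points (exact permutation p = 0.964), and with reads pooled over CpGs it was 2.00 points (exact permutation p = 0.214). Without HET replicate 1 and KO replicate 4 it was 1.78 points, a split of 4 against 2 that cannot give an exact permutation p below 0.133.

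**Figure D1:**
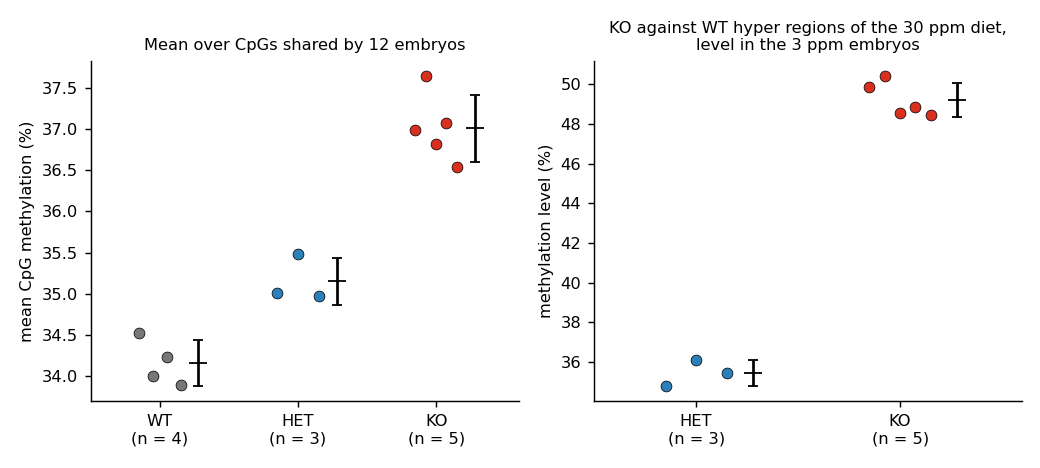
Mean CpG methylation in percent of WT, HET and KO embryos on 3 ppm FA (left, each point 1 embryo, 1068297 CpGs) and the level at the regions that the authors listed as higher in KO than WT embryos on 30 ppm (right, HET and KO of 3 ppm). Every KO embryo lies above every HET embryo in both plots, by 1.87 points of group mean over the CpGs shared by KO and HET and by 13.8 points at the listed regions.

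Large differences between KO and HET embryos were found at a minority of places, and nearly all were in 1 direction. The autosomes were divided into 1 kb regions, and 65307 regions with at least 3 shared CpGs and some spread over embryos (SD of at least 2 points) were tested by a quasi-binomial test of methylated and unmethylated reads with Benjamini-Hochberg adjustment. A region was called where the adjusted p was under 0.05 and the group means differed by at least 10 points. By this rule 5087 regions were higher in KO (hyper, 7.79% of those tested) and 12 were lower (hypo, 0.0184%), so hyper regions were 99.8% of all calls. Among hyper regions the difference had a median of 17.1 points and reached 58.3 points. It was at least 20 points in 1807 of them and at least 40 points in 92. The median tested region rested on 4 CpGs and 76.5 reads per embryo, summed over its CpGs. Read counts of regions below are sums of this kind, in which a read over several CpGs counts once for each.

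Every KO embryo lay above every HET embryo in 9723 regions (14.9% of those tested) and in 4505 of the hyper regions (88.6%), a share that the call itself favours. Over all tested regions KO was higher in 73.3%, with a median difference of 2.32 points. The 60208 regions not called were also higher in KO in 71.0%, with a median difference of 1.93 points. All these regions had passed the SD filter, which favours regions that differ between embryos. Without that filter the median difference over 92984 regions was 0.976 points, and 4871 of them were hyper (5.24%). Leaving out embryos changes how many regions can be tested, so the share of those tested stands beside each count. Hyper counts were 4517 without HET replicate 1 (6.65%), 5417 without KO replicate 4 (7.14%) and 4794 without both (6.00%). In embryos with the X-linked share of females the count was 4852 (7.41%). With the 3 KO embryos of normal phenotype the count was 5784 of 79019 tested (7.32%). With litter as a block it was 4810, and limma on log2 ratios of reads called 2671.

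**Figure D2:**
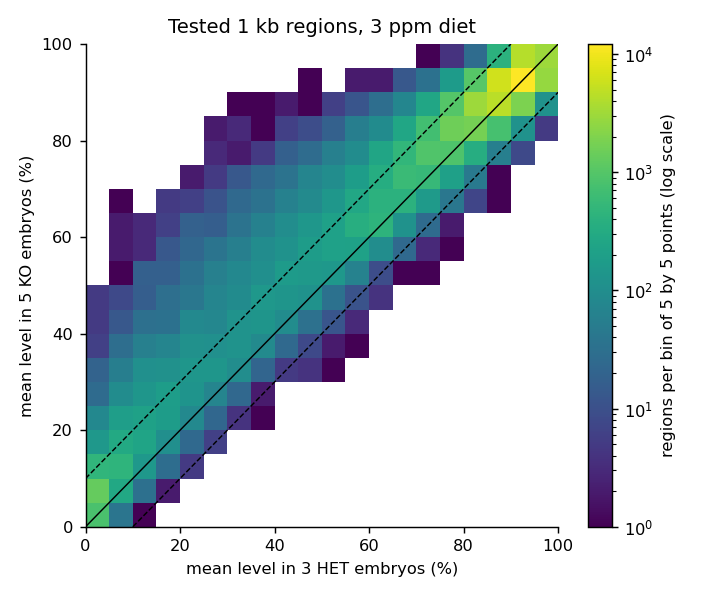
Group mean methylation of each tested 1 kb region in HET (horizontal) and KO embryos (vertical), both in percent, with the number of regions per square of 5 by 5 points shown by colour on a log scale. The solid line marks equality and the dashed lines a difference of 10 points; 5087 called regions lie beyond the upper dashed line and 12 beyond the lower.

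The hyper regions with the largest differences were stretches at which HET embryos were mostly unmethylated and KO embryos mostly methylated. The sequences of several are shown because their measured CpGs, in capitals, carry the finding; all are on the + strand of mm10 and come from the RefSeq copy of that assembly. They comprise an intergenic stretch whose nearest protein-coding start is Larp1, 79563 bp away (chr11:57929771-57929857), an exon of Zfp467 (chr6:48439180-48439266), an intergenic stretch near Gm10647 (chr9:66806078-66806167), and promoter regions of Tmem233 (chr5:116083016-116083189), Npy (chr6:49823698-49823810) and Cartpt (chr13:99899961-99900008). A promoter region, also called a promoter below, is a 1 kb region that overlaps the 1 kb to either side of a protein-coding start. Its measured CpGs can thus lie inside the gene, or further than 1 kb from the start. The middle of the region lay 256 bp from the nearest start at Tmem233, 790 bp at Npy and 1140 bp at Cartpt.
Larp1: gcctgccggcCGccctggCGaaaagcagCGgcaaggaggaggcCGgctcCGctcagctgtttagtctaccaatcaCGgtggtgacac
Zfp467: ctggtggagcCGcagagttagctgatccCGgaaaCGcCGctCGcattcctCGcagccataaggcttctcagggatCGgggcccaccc
Gm10647: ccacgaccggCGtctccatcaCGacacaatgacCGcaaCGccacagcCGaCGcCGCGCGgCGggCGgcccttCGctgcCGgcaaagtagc
Tmem233: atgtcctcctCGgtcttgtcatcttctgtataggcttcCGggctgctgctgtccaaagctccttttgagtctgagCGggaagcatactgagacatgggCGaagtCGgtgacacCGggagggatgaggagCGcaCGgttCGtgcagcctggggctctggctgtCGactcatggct
Npy: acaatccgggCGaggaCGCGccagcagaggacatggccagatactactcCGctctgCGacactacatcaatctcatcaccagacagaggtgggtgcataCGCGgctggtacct
Cartpt: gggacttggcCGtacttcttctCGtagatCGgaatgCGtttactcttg

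At the stretch nearest Larp1, an RNA-binding regulator of translation, the 5 KO embryos were at 68.6, 74.3, 55.6, 65.2 and 71.6% and the 3 HET embryos at 9.84, 7.89 and 8.54%. This was the largest difference of all, 58.3 points (quasi-binomial test, adjusted p = 2.59e-16), and the 4 WT embryos, at 5.91 to 9.92%, lay beside the HET embryos. Each of its 6 CpGs separated the genotypes, with KO means of 50.6 to 89.8% and HET means of 0.926 to 24.9% per CpG.

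In the exon of the zinc finger gene Zfp467, KO embryos were at 96.4, 82.4, 84.2, 78.7 and 91.1% and HET embryos at 22.5, 39.6 and 28.5% (difference 56.4 points, quasi-binomial test, adjusted p = 1.01e-15). HET embryos were here above all WT embryos, which were at 7.88 to 16.2%. At the stretch near Gm10647, a predicted gene, KO embryos were at 63.9, 58.1, 67.4, 77.5 and 56.5% and HET embryos at 0.753, 11.6 and 14.3% on 233 to 614 reads (difference 55.8 points), and the WT range of 4.82 to 25.4% reached above that of HET. All 13 CpGs of that stretch separated KO from HET embryos.

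In the promoter region of Npy, which encodes neuropeptide Y, KO embryos were at 70.1, 78.3, 77.0, 85.2 and 86.3% and HET embryos at 35.3, 21.7 and 24.3% (difference 52.2 points, quasi-binomial test, adjusted p = 1.2e-15). Its 7 CpGs were at 59.4 to 92.9% in KO and 13.9 to 41.75% in HET embryos, and each separated the groups. At Cartpt, which encodes the precursor of the CART peptide, KO embryos were at 65.0, 76.1, 72.0, 70.8 and 71.6% and HET embryos at 28.9, 19.4 and 26.1% (difference 46.3 points, adjusted p = 9.06e-11 by the same quasi-binomial test). The region of Tmem233, a transmembrane protein gene, had KO embryos at 65.1, 64.4, 76.0, 70.9 and 66.7% and HET embryos at 14.1, 16.2 and 14.97% (difference 53.5 points, quasi-binomial test, adjusted p = 1.14e-19). Each of its 10 CpGs separated the groups, and WT embryos were at 4.36 to 12.4%.

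The other hyper regions of largest difference, at most 1 per nearest gene, were intergenic ones nearest to Chst2 (56.3 points) and Maf (54.3), an intron of Gm20388 (52.9), and exons of Dqx1 (51.7), Gm47110 (50.4), Gm13736 (50.07) and Tceanc2 (50.07). The 20-CpG exon of Gm13736 had the largest sum of reads over CpGs of these, 372 to 672. Its KO embryos lay between 65.9 and 71.5% and its HET embryos between 16.3 and 22.8%. Other promoter regions of large gain were those of Col11a2, a fibrillar collagen chain (47.9 points), Fry (47.4), Trim58, an E3 ubiquitin ligase of red cell precursors (46.9), Alox12e, a lipoxygenase (46.1), Etl4 (46.0), Nphs1, the nephrin gene of kidney podocytes (45.5), and Hs3st6, a heparan sulfate sulfotransferase (44.7). In each of these 20 regions every KO embryo lay above every HET embryo, which the rule for naming them required, and none lost its call under any setting in which it could be tested.

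**Figure D3:**
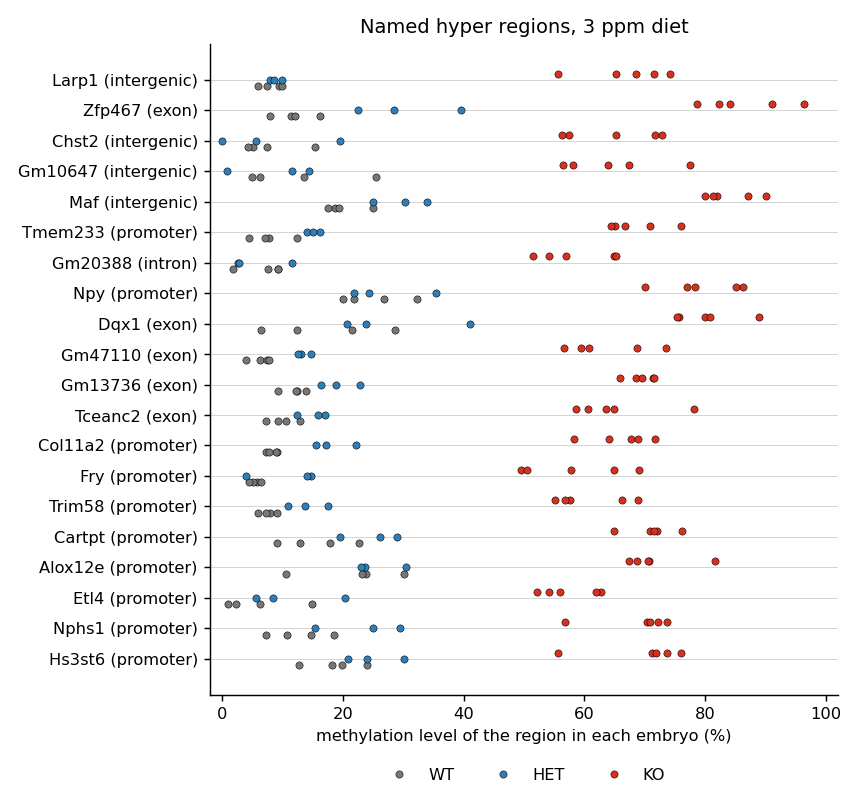
Methylation in percent of the 20 named hyper and promoter regions in each KO, HET and WT embryo on 3 ppm FA, 1 row per region, each point 1 embryo; intergenic regions carry the name of the nearest gene. KO embryos form a separate group on the right in every row, while HET and WT embryos lie together or side by side on the left.

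Regions of intermediate or low methylation were called hyper most often. Of regions at 10 to 20% in WT embryos 43.04% were hyper, of those at 20 to 40% 39.9%, and of those at 40 to 60% 24.5%. The share was 6.88% at a WT level of 60 to 80%, 0.569% at 80 to 90% and 0.0859% above 90%. A call needs a gain of at least 10 points, for which highly methylated regions have little or no room. HET medians were 88.3% at a WT level of 80 to 90% and 93.5% above 90%. The fall at the high end is thus in large part set by the call rule. Regions below 5% in WT were hyper in 17.4% of those tested but in 2.35% of all 24383 candidate regions at that level, since the SD filter removed most of them; at 10 to 20% the share of candidates was 42.7%. The median hyper region was at 30.1% in WT, 36.34% in HET and 59.8% in KO embryos. WT embryos took no part in the call.

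**Figure D4:**
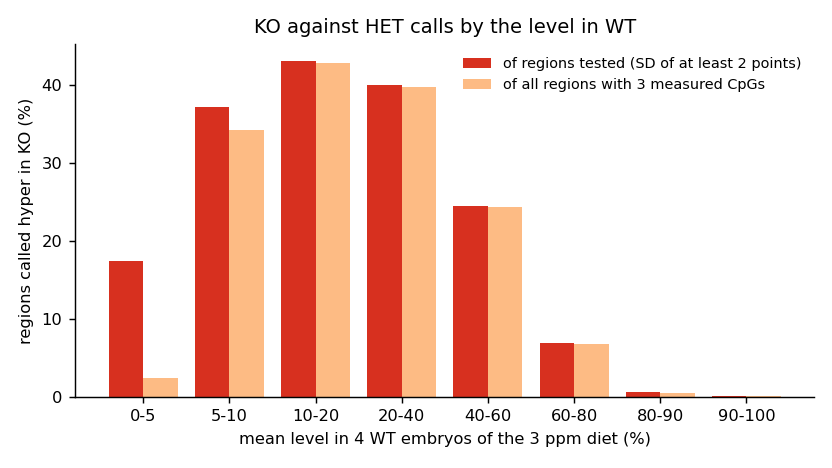
Share of 1 kb regions called hyper in KO against HET embryos, in percent, by the mean methylation of the region in WT embryos in percent, drawn of the tested regions and of all candidate regions. The share of tested regions is highest, 43.04%, at 10 to 20% and falls to 0.0859% above 90%. The median HET level there was 93.5%, which left no room for the gain of 10 points that a call needs. Below 5% the tested and candidate shares differ, 17.4 and 2.35%.

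By position, promoter regions (1 kb regions that overlap the 1 kb to either side of a protein-coding start) were hyper in 1375 of 7036 tested, or 19.5%. Exons followed with 8.80%, intergenic regions with 5.46% and introns with 5.20%. Of candidate regions before the SD filter, the shares were 5.52% for promoters, 7.00% for exons, 4.78% for intergenic regions and 4.65% for introns, so the lead of promoters was not seen without that filter. At a WT level of 20 to 60%, where the filter removed few regions, 40.11% of promoter, 45.64% of exon, 24.9% of intergenic and 21.7% of intron regions were hyper. By CpG density, the share rose from 1.66% of tested regions with under 10 CpGs per kb to 23.0% of those with 40 to 60, and was 20.2% of those with 60 or more. Of candidate regions these shares were 1.58, 5.36 and 1.21%, with the highest, 8.45%, at 20 to 40 CpGs per kb, so the order by density differed without the SD filter. All 19 autosomes had hyper regions, from 5.51% of those tested on chromosome 18 to 10.3% on chromosome 11.

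At the Tet1 gene itself (chr10:62804570-62908996, mm10, - strand) 3 regions, all in introns, were hyper. The region from 62884001 was at 87.0, 91.7, 86.7, 91.4 and 90.8% in KO and 59.1, 56.2 and 54.9% in HET embryos (difference 32.8 points, quasi-binomial test, adjusted p = 8.78e-07). HET embryos lay between the KO embryos and the WT mean of 29.0%. A single CpG in it, at 62884019, was at 72.0 to 93.8% in KO, 30.0 to 47.4% in HET and 0 to 7.32% in WT embryos, on 10 to 25 reads in KO and HET embryos. The neighbouring region from 62885001 was at 77.0% ± 1.17 in KO and 47.3% ± 3.55 in HET embryos, and the one from 62870001 at 90.1% ± 3.11 and 75.6% ± 3.54 (n = 5 and 3). WT means were 38.46% in the former, below HET, and 80.05% in the latter, above HET. Per the paper, the allele was made in another mouse strain and backcrossed to this one. The genotypes can therefore differ in base sequence at Tet1, and whether such differences entered these values was not tested.

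Within 10 Mb of Tet1, sequence that can travel with the targeted allele, 47 of 702 tested regions were hyper (6.70%), beside 212 of 3100 on the rest of chromosome 10 (6.84%). No region there was hypo by the quasi-binomial test. With the p left unadjusted (under 0.05) and the 10-point rule kept, the count was also 0, as it was by limma on either scale. The largest gains were at the promoter of Srgn, the serglycin proteoglycan (KO 71.4, 55.6, 74.5, 71.4 and 45.83%, HET 14.3, 22.2 and 15.6%), and in exons of Lrrtm3, a synaptic adhesion protein gene, and Pald1. These were 46.4, 35.7 and 35.16 points, and KO and HET embryos did not overlap at any of the 3. The Srgn region rests on 3 CpGs and 18 to 54 reads.

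Groups of genes are described next by how many members had a hyper region, beside 22.3% of all 5752 genes with a tested promoter region and 16.7% of all 10395 genes with a tested region elsewhere in the gene body. These are shares of genes that passed the SD filter. Before it, 14173 genes had a promoter region measured, of which 1284 were hyper. A list above all genes by tested promoters can lie below them by measured promoters, and the reverse. Members with a promoter measured numbered 21 for DNA methylation, 26 for folate, 33 for neural tube closure, 22 for planar cell polarity, 50 for WNT and 22 for hedgehog. They numbered 54 for brain patterning, 33 for proneural, 54 for axon guidance, 31 for germline, 26 for imprinted, 22 for pluripotency and 35 for blood to muscle genes. A gene with more tested regions has more chances of a call. Values are percent methylation, a difference is KO minus HET in points, and p-values come from the quasi-binomial test, adjusted over all 65307 regions. Over all genes the median difference was 4.49 points in promoter regions and 2.22 points in gene body regions. These medians, and those of the lists, cover only regions that passed the SD filter. Without both litter 42 embryos the calls of Mthfd2, Grhl3, Efna5, Notch2 and Tdrd9 below, and of the hypo regions at Ptpn3, Zmat4, Gdf3 and Gm8994, were lost.

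Genes that write and remove DNA methylation were hyper in 2 of 7 tested promoters and 5 of 18 tested gene bodies, with median differences of 4.16 and 2.14 points, near those over all genes. Tet3, the TET enzyme of the zygote and of neural cells, had a promoter region at 57.1, 48.6, 44.8, 53.97 and 52.6% in KO and 19.4, 27.8 and 19.05% in HET embryos (difference 29.3 points). KO and HET embryos were well apart there, and WT embryos were at 11.8 to 22.7%. An intron of Dnmt3a, a de novo methyltransferase, was at 37.6, 34.8, 39.2, 33.1 and 36.22% in KO and 15.1, 16.4 and 13.1% in HET embryos (difference 21.3 points, quasi-binomial test, adjusted p = 3.04e-08). Its sequence (chr12:3871766-3871876, mm10, + strand, from RefSeq, measured CpGs in capitals) is given because its CpGs gained unequally, by 2.54 to 35.7 points, and 5 of 6 separated the groups.
Dnmt3a: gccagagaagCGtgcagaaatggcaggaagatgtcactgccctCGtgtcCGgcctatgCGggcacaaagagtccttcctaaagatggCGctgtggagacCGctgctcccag

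Genes of folate and one-carbon metabolism, the pathway that the diet feeds, were hyper in 2 of 10 tested promoters and 1 of 18 tested gene bodies, with medians of 5.45 and 1.501 points. The promoter of Aldh1l2, the mitochondrial enzyme that oxidises 10-formyltetrahydrofolate, was at 35.1, 21.7, 21.7, 25.1 and 29.0% in KO and 4.07, 6.43 and 3.39% in HET embryos (difference 21.9 points, quasi-binomial test, adjusted p = 4.13e-12). WT embryos were at 0.276 to 4.27%. Mthfd2, a mitochondrial methylenetetrahydrofolate dehydrogenase, had a promoter difference of 11.4 points (24.8 against 13.4%), and a region of Shmt2, the mitochondrial serine hydroxymethyltransferase, which also lies over an exon of Ndufa4l2, differed by 15.99 points (85.7 against 69.8%). The Mthfd2 call was lost without KO replicate 2, KO replicate 4 or HET replicate 3 (adjusted p of 0.0219 to 0.143, where the difference could fall under 10 points), and that of Shmt2 without HET replicate 3 (adjusted p = 0.0646). By limma on log2 ratios of reads neither was called (adjusted p of 0.102 for Mthfd2 and 0.0630 for Shmt2), and the Mthfd2 call was also lost with KO embryos of normal phenotype only.

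Of genes needed for closure of the cranial neural tube, 1 of 6 tested promoters and 6 of 25 tested gene bodies were hyper (median differences of 2.45 and 2.83 points). An exon of Grhl3, a transcription factor of the surface ectoderm, was at 63.4% ± 8.97 in KO and 42.4% ± 4.26 in HET embryos, with all KO embryos higher, and an intron of Efna5, an ephrin, at 25 to 50% and 12.5 to 27.6%, where the groups overlapped. The differences were 20.9 and 18.0 points. Without HET replicate 2 the Grhl3 call was lost (adjusted p = 0.0649), as it was by limma on log2 ratios of reads (adjusted p = 0.0840). The Efna5 call was lost under most settings: without any of KO replicates 2, 3 and 4 and HET replicates 1 and 3 (adjusted p of 0.0520 to 0.124), with sex as labelled or by X-linked share as a covariate (0.0547 and 0.0639), by limma on either scale (0.114 and 0.0562), with all 12 embryos of the diet in the fit and with KO embryos of normal phenotype only.

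Planar cell polarity genes, which orient cells in the closing neural plate, were hyper in 0 of 5 tested promoters and 5 of 20 tested gene bodies (median differences of 2.96 and 2.40 points). Counted by region, 6 of 113 gene body regions were hyper (5.31%), below the 7.01% over all genes. No promoter of the group was called hyper by limma, or by the 10-point rule with the p left unadjusted (under 0.05). The largest called differences in gene bodies were 18.8 points in an exon of the receptor Ror1 (KO 47.8 to 64.8%, HET 37.0 to 39.8%), 14.7 in an intron of the pseudokinase Ptk7 (72.7 to 83.5%, 61.5 to 64.7%) and 13.3 in an exon of the cadherin Celsr3 (85.1 to 94.4%, 74.3 to 77.4%). All 3 calls were lost with limma on log2 ratios of reads (adjusted p of 0.0896, 0.0806 and 0.0504).

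In the WNT pathway, 4 of 17 tested promoters and 11 of 37 tested gene bodies were hyper, in ligands, agonists, receptors and transcription factors (median differences of 6.66 and 3.45 points). The largest was in an intron of the ligand gene Wnt3a, at 82.0, 79.8, 68.6, 74.6 and 81.3% in KO and 28.1, 38.62 and 41.7% in HET embryos (difference 41.1 points, quasi-binomial test, adjusted p = 3.16e-13). HET embryos were above the WT embryos, which lay at 14.5 to 21.6%, and all 9 CpGs separated KO from HET embryos by 33.8 to 56.5 points. The stretch (chr11:59284316-59284409, mm10, + strand, from RefSeq) is shown as the largest gain of a signalling gene with a role in the dorsal neural tube.
Wnt3a: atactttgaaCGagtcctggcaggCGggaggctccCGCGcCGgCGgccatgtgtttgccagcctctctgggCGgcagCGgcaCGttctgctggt
An intron of Lgr6, a receptor for R-spondins, rose from 13.1% ± 2.12 in HET (n = 3) to 47.3% ± 3.61 in KO (n = 5), and an exon of Rspo1, an R-spondin, from 27.0% ± 1.44 to 52.1% ± 3.71. Promoters called were those of Wnt2 (16.5 points), Wnt8a (14.5), Rspo4 (16.04) and Lgr6 (20.7), regions outside the naming rule and named after their values were seen.

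Sonic hedgehog pathway genes were hyper in 0 of 7 tested promoters and in 6 of 17 tested gene bodies. The median differences were 1.43 and 2.09 points. The promoter count was also 0 by limma, and by the 10-point rule with the p left unadjusted (under 0.05). An intron of Gpr161, a receptor that restrains the pathway in the cilium, was at 80.4 to 91.3% in KO and 51.0 to 57.1% in HET embryos (31.0 points). An intron of Hhip, which binds the ligand, was at 18.6 to 28.9% and 3.12 to 5.00% (21.9 points), and an exon of Shh, the ligand, at 16.7, 25, 42.5, 23.8 and 23.1% in KO and 5.13, 0 and 10.4% in HET embryos (21.0 points, quasi-binomial test, adjusted p = 0.00164). KO and HET embryos did not overlap at these 3 places, and the Shh region rests on 3 CpGs with 27 to 96 reads.

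Homeobox and PAX factors that pattern the brain were hyper in 1 of 9 tested promoters and 6 of 22 tested gene bodies. All 54 members had a promoter measured, and for 9 of them a promoter region passed the SD filter (median differences of 4.77 points in promoters and 4.30 in gene bodies). An exon of Gbx1 was at 41.5 to 52.6% in KO and 14.3 to 15.98% in HET embryos (31.99 points), an intron of Lhx2, a factor of forebrain and eye, at 44.9 to 68.1% and 19.6 to 34% (26.2 points). The promoter of Lhx3, a factor of motor neurons and pituitary, was at 47.6, 43.5, 39.2, 41.803 and 35.8% in KO and 12.8, 19.1 and 15.6% in HET embryos (25.7 points, quasi-binomial test, adjusted p = 2.12e-08). It is shown (chr2:26205779-26205899, mm10, + strand, from RefSeq) as the patterning gene whose promoter gained, with 5 of its 6 CpGs apart.
Lhx3: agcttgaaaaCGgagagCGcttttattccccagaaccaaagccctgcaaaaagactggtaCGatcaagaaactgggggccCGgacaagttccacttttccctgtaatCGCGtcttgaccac

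Proneural and progenitor factors were hyper in 1 of 6 tested promoters and 2 of 10 tested gene bodies (median differences of 3.89 and 2.76 points). An exon region of Nhlh1, a basic helix-loop-helix factor of young neurons, with 30 CpGs and 379 to 880 reads, was at 42.06, 31.9, 24.9, 32.2 and 26.9% in KO and 2.81, 5.01 and 6.70% in HET embryos (26.7 points, quasi-binomial test, adjusted p = 6.44e-15). WT embryos, at 2.62 to 4.38%, were as low as HET embryos. The promoter of Olig1, a factor of oligodendrocyte precursors, was at 46.2 to 69.2% in KO and 27.0 to 40.4% in HET embryos (25.2 points). An intron of the receptor Notch2 was at 52.7% ± 2.56 and 41.98% ± 7.18 (10.8 points, KO embryos all higher); its call was lost with litter as a block (quasi-binomial test, adjusted p = 0.0756) and without KO replicate 1, HET replicate 1 or HET replicate 3 (adjusted p of 0.0292 to 0.474, with a difference that could fall under 10 points). By limma it was not called on log2 ratios of reads (adjusted p = 0.321) or on unweighted means of CpG levels (8.96 points, adjusted p = 0.161).

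Axon guidance genes were hyper in 6 of 22 tested promoters and 19 of 53 tested gene bodies (median differences of 5.62 and 2.89 points). Counted by region the share was 29 of 333 gene body regions (8.71%), beside 7.01% over all genes, so the members' many tested regions weigh in the count by gene. A Sema5b exon region of 47 CpGs, on 834 to 1547 reads, was at 59.3, 72.7, 67.3, 56.9 and 63.6% in KO and 17.9, 17.0 and 21.1% in HET embryos (45.32 points, quasi-binomial test, adjusted p = 5.46e-22). Sema5b encodes a semaphorin, and its HET embryos lay next to the WT embryos at 13.7 to 17.2%. Introns of Nrp2, a semaphorin receptor, and Epha8, an ephrin receptor, rose by 28.8 points (from 27.2% ± 0.971 to 56.0% ± 7.04) and 27.5 points (from 51.7% ± 1.67 to 79.1% ± 8.05).

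Germline genes that are silenced by promoter methylation in somatic cells were hyper in 2 of 25 tested promoters, 8.00% beside 22.3% over all genes, and in 4 of 19 tested gene bodies. Of promoters measured before the SD filter 2 of 31 were hyper, beside 1284 of 14173 over all genes. Neither comparison is matched for starting level. Over all genes, promoter regions at 80 to 100% in WT embryos were hyper in 0.563% of those tested. Median differences of the germline genes were 1.04 points in promoters and 1.99 in gene bodies. An exon of Piwil1 rose by 28.1 points (55.6 to 83.8%) and an intron of the meiotic cohesin gene Smc1b by 26.7 (46.5 to 73.2%). For an exon of Tdrd9 the difference was 16.5 points (66.8 and 83.3%), with a call lost without KO replicate 3, HET replicate 2 or HET replicate 3 (adjusted p of 0.0514 to 0.134), with sex by X-linked share as a covariate (adjusted p = 0.0778), in embryos with the X-linked share of females and with KO embryos of normal phenotype only. The 2 promoters were those of Meioc (14.9 points) and Sycp3 (12.3 points), named after their values were seen, and by limma neither scale called any promoter of this group.

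Imprinted genes were hyper in 4 of 19 tested promoters and 3 of 20 tested gene bodies (median differences of 2.24 and 1.54 points). The Dlk1 promoter region was at 56.4, 43.3, 70.9, 64.9 and 58.4% in KO and 34.4, 34.2 and 31.7% in HET embryos (25.3 points, quasi-binomial test, adjusted p = 9.98e-08), a wide KO range that stayed above the HET range. A promoter region of Igf2, the growth factor expressed from the paternal allele, was at 25 to 53.6% in KO and 5.00 to 19.05% in HET embryos (24.4 points), and that of Grb10 at 32.0 to 49.8% and 16.2 to 20.9% (21.7 points).

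Pluripotency genes were hyper in 4 of 13 tested promoters and 1 of 11 tested gene bodies, and 1 promoter, that of Gdf3, was hypo (median differences of 6.25 and 1.504 points). The promoter of Lefty1, an inhibitor of Nodal signalling, was at 56.4, 42.2, 55.3, 55.2 and 53.2% in KO and 24.6, 21.6 and 18.1% in HET embryos (31.0 points, quasi-binomial test, adjusted p = 3.71e-09). An exon of Esrrb was at 71.4 to 89.1% and 48.4 to 60.5% (30.6 points), and the promoter of Prdm14, a factor of germ cell precursors, at 22.9 to 40.54% and 8.51 to 14.1% (20.4 points). KO lay above HET embryos at all 3.

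Genes of blood, endothelium, mesenchyme and muscle were hyper in 5 of 18 tested promoters and 5 of 23 tested gene bodies (median differences of 5.55 and 2.39 points). Counted by region, 5 of 95 gene body regions were hyper (5.26%), below the 7.01% over all genes. Promoters of Meox1, a somite homeobox gene, and Twist2, a mesenchymal factor, rose from 29.1% ± 2.98 to 57.05% ± 3.66 and from 8.97% ± 1.92 to 33.8% ± 6.26, and an intron of Ptprc, the leukocyte antigen CD45, from 10.6% ± 7.37 to 34.7% ± 8.81 (HET n = 3, KO n = 5). Over all promoter CpGs shared by the 8 embryos, Spi1 was at 82.0% in KO and 70.4% in HET embryos, Myod1 at 17.9 and 8.14%, Twist2 at 13.5 and 5.37%, Col1a1 at 27.2 and 11.8% and Actc1, with 1 CpG, at 92.1 and 80.2%. Whether the brains differed in how many such cells they held was not tested.

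Regions lower in KO than HET embryos were few. The 12 hypo regions compare with 26, 28 and 22 when KO replicate 2, 4 or 5 was left out, 27 without both litter 42 embryos and 55 by a binomial test with no extra spread. The 5 of largest difference were an exon of Ptpn3, a tyrosine phosphatase gene (-19.3 points), an intron of Zmat4 (-16.6), the promoter of Gdf3, a TGF-beta family ligand (-16.3), an intron of Myo3a, a myosin gene (-16.2), and an intergenic region near Gm8994 (-15.2). Not all of these were below the WT level in KO embryos: the KO mean lay 2.04 points below the WT mean at Ptpn3 and 0.361 and 2.92 points above it at Zmat4 and Gm8994, where the HET means were 17.3, 17.0 and 18.1 points above the WT mean, in that order. At Gdf3 and Myo3a the KO means were 13.4 and 10.5 points below the WT means. At Myo3a KO embryos were at 83.0, 78.9, 50.7, 71.1 and 65.1% and HET embryos at 84.7, 85.7 and 87.4% (quasi-binomial test, adjusted p = 0.00403). KO embryos were below HET embryos at Myo3a and at Ptpn3 (47.1 to 66.7% against 70.8 to 84.6%) and overlapped them at the other 3 places. At Gdf3 they were at 46.7, 60.2, 37.9, 45.83 and 46.4%, against 65, 75 and 51.1% in HET and 54 to 65.6% in WT embryos. Each call was lost when 1 embryo was left out: Myo3a without KO replicate 3 (adjusted p = 0.0569), Ptpn3 without KO replicate 1, HET replicate 1 or HET replicate 3 (0.0785 to 0.181), Gdf3 without KO replicate 3, HET replicate 1 or HET replicate 2 (0.0916 to 0.269), Zmat4 without KO replicate 3, KO replicate 4, HET replicate 1 or HET replicate 3 (0.0641 to 0.286) and Gm8994 without KO replicate 4, HET replicate 1 or HET replicate 3 (0.0699 to 0.131). With litter as a block the Ptpn3 call was also lost (adjusted p = 0.0885). By limma on log2 ratios of reads all 5 calls were lost (adjusted p of 0.0894 for Ptpn3, 0.353 for Zmat4, 0.221 for Gdf3, 0.151 for Myo3a and 0.0947 for Gm8994), and on unweighted means of CpG levels all but that of Ptpn3 (0.0886 to 0.272). With all 12 embryos of the diet in the fit those of Zmat4, Gdf3 and Gm8994 were lost, without the SD filter those of Zmat4 and Gdf3, and with KO embryos of normal phenotype only those of Zmat4 and Gm8994.

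Regions that the authors had listed as higher in KO than WT embryos on the other diets gave a test on places that the 3 ppm embryos did not choose. At the 8796 autosomal regions of the 30 ppm list, the 3 ppm KO embryos were at 49.9, 50.4, 48.6, 48.9 and 48.5% and the HET embryos at 34.8, 36.1 and 35.43%. The difference was 13.8 points (two-sided exact permutation p = 0.0357, adjusted 0.0446), and WT embryos of 3 ppm were at 29.8 to 31.6%, below every HET embryo. At the 6641 autosomal regions of the 0.1 ppm list, KO embryos were at 46.4 to 48.5% and HET embryos at 32.6 to 33.8% (difference 13.98 points, two-sided exact permutation p = 0.0357). Within litters 40, 42 and 45 the difference at the 30 ppm list was 14.03, 14.1 and 13.1 points, and that of the mean CpG methylation 1.84, 2.09 and 1.87 points. 3 litters cannot give an exact sign-flip p below 0.25.

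Parts of the lists that overlapped no region of the authors' 3 ppm list had differences of 6.88 points for 30 ppm and 6.39 points for 0.1 ppm (two-sided exact permutation p = 0.0357 for each). The 3 ppm list was made with these KO embryos, so leaving out its regions lowers what remains, and the sizes are not set against those of the whole lists. At the authors' 5501 autosomal regions higher in HET than WT embryos on 3 ppm, which HET embryos helped to choose, KO embryos were at 68.1%, HET embryos at 57.6% and WT embryos at 49.1%. At their 18109 autosomal regions higher in KO than WT embryos on that diet, which KO embryos helped to choose, the levels were 53.2% in KO and 41.5% in HET embryos.

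The regions hyper on 3 ppm were also higher in KO embryos of the other diets, which took no part in the call. The genotype of 1 of these embryos, KO replicate 1 of 30 ppm by its label in GEO, is in doubt. The study's own list of samples gives that embryo as HET. Groups follow the GEO labels, so every KO value of 30 ppm below includes this library unless it is said to be left out. In the 30 ppm embryos, libraries labelled KO (n = 6) were at 45.56% ± 7.37 and HET (n = 5) at 31.5% ± 0.995, a difference of 14.1 points (two-sided exact permutation p = 0.0260, adjusted 0.0446). The library in doubt stood at 30.6%, below all HET libraries (30.7 to 32.8%), and the other 5 at 47.1 to 49.2%. Without it the difference was 17.1 points (exact permutation p = 0.00794). With it, KO was higher in 4728 of 4793 measured regions (98.6%) and by at least 10 points in 63.8%, beside 73.6 and 8.20% of all regions tested. Without it, KO was higher in 4749 of them (99.1%) and by at least 10 points in 76.3%. In the 0.1 ppm embryos, KO (n = 5) were at 49.7 to 50.9% and the 2 HET embryos at 32.6 and 33.4%. That difference of 17.1 points had an exact permutation p = 0.0952, the smallest 5 against 2 can give, and KO was higher in 4646 of 4753 regions (97.7%), beside 69.5% of all tested.

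**Figure D5:**
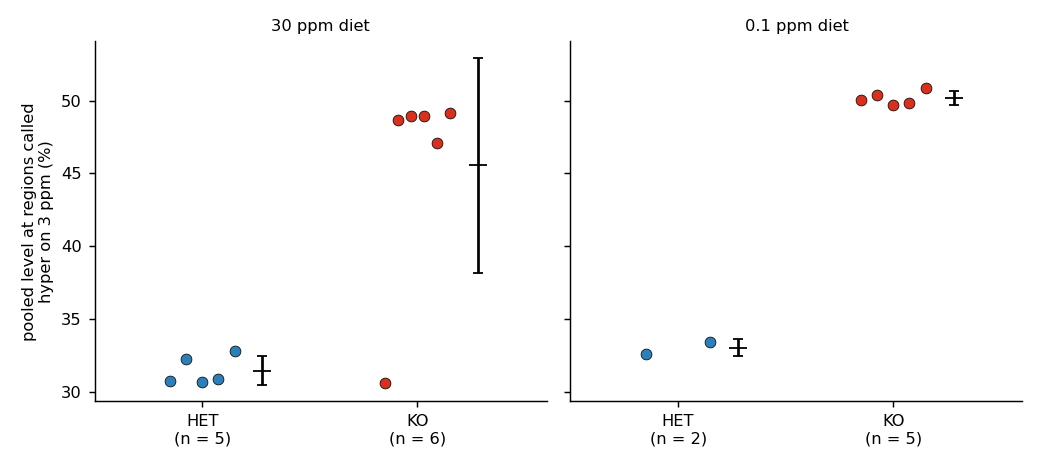
Level in percent, reads pooled over the regions hyper in KO against HET embryos on 3 ppm, in the HET and KO embryos of the 30 and 0.1 ppm diets, each point 1 embryo with the group mean ± SD. Libraries labelled KO lie above those labelled HET on both diets except KO replicate 1 of 30 ppm, at 30.6%, whose label is in conflict with the study's list of samples.

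The hypo regions were not lower in KO on the other diets to a like extent. Of 9 with data, KO was higher in 4 on 30 ppm and in 3 on 0.1 ppm, with median differences of -0.207 and -2.14 points. In the Npy promoter region the KO mean was 74.0% beside a HET mean of 36.9% on 0.1 ppm, and at Sema5b 67.7 beside 16.05%. On 30 ppm, with the library in doubt, the KO and HET means were 69.9 and 34.2% at Npy and 54.3 and 19.1% at Sema5b. The lowest KO values there, 27.0% at Npy and 16.9% at Sema5b, lay within the HET ranges of 24.3 to 44.6% and 14.4 to 23.2%. The Gdf3 promoter had a KO mean of 54.2% and a HET mean of 54.1% on 30 ppm, and of 48.9% and 50.6% on 0.1 ppm.

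Over CpGs covered on both diets, the KO minus HET difference of the mean was 1.49 points on 30 ppm with the library in doubt and 1.84 points on 3 ppm, a gap of -0.351 ± 0.491 points (SE; exact permutation of diet within genotype, p = 0.642). Without that library it was 1.89 points on 30 ppm and the gap 0.0495 ± 0.287 points (exact permutation p = 0.888). The difference was 1.69 points on 0.1 ppm and 1.84 on 3 ppm, a gap of -0.144 ± 0.289 points (exact permutation p = 0.619). These p-values do not show that the diets had the same KO effect. The test was chosen after seeing the data and takes the diets as alike within each genotype. The exact permutation of genotype within diet, chosen before it, gave p = 0.728, 0.963 and 0.929 in that order, but it takes both KO effects as absent, which widens its null spread.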

How the data were processed

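Whole-brain DNA of 36 E11.5 embryos was profiled by the study with oxidative bisulfite sequencing of MspI and TaqI digested DNA. Per the labels and the study's methods, the authors trimmed reads with Trim Galore 0.6.10, aligned them to mm10 with Bismark 0.24.1, removed duplicates by molecular identifiers with UMI-tools and tested with methylKit 1.26.0 in R 4.3.1. The deposited table of each embryo lists for each CpG its methylated fraction and its read count, with strands joined by a step not given in the sources used here. Deposited positions count from 0 and were moved to 1-based. Lists of differentially methylated regions were deposited by the authors as positions with a constant score of 0, and of these the KO against WT hyper lists and the 3 ppm HET against WT hyper list were used. The lists of other comparisons and the signal tracks were not used here.

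Fraction times count gave methylated reads. CpGs with at least 5 reads in all embryos compared were summed into 1 kb regions. Regions with at least 3 CpGs and an SD of at least 2 points over embryos entered a logistic model of quasi-binomial form. Its dispersion was moderated by the method of squeezeVar in limma, with a floor of 1, and a two-sided F test was used with Benjamini-Hochberg adjustment over all regions tested. The prior held 35.9 degrees of freedom. Single values of each embryo were tested by exact permutation of genotype labels, two-sided, and the gap between diets also by exact permutation of diet labels within genotype, an alternative chosen after seeing the data. Exact permutation p-values measure the spread between single embryos. For regions that spread was moderated with the prior above, so their p-values rest in large part on the spread over all regions. Reads had their duplicates removed, but a read over several CpGs of a region entered once per CpG. The counts of a region can thus exceed its molecules. Pairs of embryos within a group differed by 1.54 to 1.89 in chi-square per region, where sampling noise of independent counts gives 1. Counts that hold a read once per CpG can exceed 1 by sampling alone. These values thus cannot decide whether a library repeats another, and each library was taken as a separate embryo by its label.

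Named regions were the 12 hyper regions of largest difference (every KO above every HET embryo, 1 per nearest gene, beyond 10 Mb of Tet1), the 8 next promoter regions by the same conditions, the 5 hypo regions of largest loss, up to 3 within 10 Mb of Tet1 and up to 3 members of each gene list with the largest called difference. Members, lists and tests were chosen with earlier results of these data known. Genes come from GENCODE vM21, on mm10, and sequences from RefSeq's GRCm38. Litter, from the pregnancy number in the labels, pairs the embryos. Deviations from group means correlated at 0.00587 to 0.0322 between the 4 litter mates of different genotype and at -0.0218 to 0.0103 between the other 11 such pairs. Alternatives were other minimum coverages, CpG numbers, differences, scales, covariates, litter as a block, and embryos left out; the shallow HET library of 0.1 ppm that the study left out entered only as one of these. Embryos with the X-linked share of females, that share as a covariate, and leaving out litter 42 were chosen after seeing the data. Values of a few listed genes, among them 1 named by the rule, are not reported here. The methods were tested on simulated data. Work used Python 3.11.15, numpy 2.4.6, scipy 1.17.1, pandas 2.3.3, matplotlib 3.10.9, and R 4.3.3 with limma 3.58.1.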

Additional observations from a re-analysis of the deposited data

Results flagged for a closer look

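In the 30 ppm diet the library labelled KO replicate 1 stood apart from the other 5 KO libraries. Its level was 30.6% at the regions hyper on 3 ppm, where the others were at 47.1 to 49.2%, and 62.2% over all regions tested on 3 ppm, where the others were at 67.3 to 68.2%. The study's own list of samples gives this embryo as HET, while its label in GEO says KO. Among the 3 ppm embryos, single values lay far from the rest of their group at 4 named regions. KO replicate 5 was at 81.6% at Alox12e (others 67.3 to 70.7%) and at 56.8% at Nphs1 (others 70.4 to 73.7%). KO replicate 4 was at 55.7% at Hs3st6 (others 71.2 to 76.0%), and KO replicate 2 at 42.2% at Lefty1 (others 53.2 to 56.4%). Of 86 groups of 4 to 10 samples checked in this way 6 had such a value (6.98%), and chance gives about 1 in 20. In the sex chromosomes, whose methylation no comparison used and whose share of calls served as a covariate and to choose embryos in alternatives, KO replicate 4 had 471 Y-linked calls per 1e6 calls, where the other embryos with the X-linked share of females had 67.0 to 90.4. The causes were not tested.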

How the results depend on the processing

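Hyper regions numbered 3306 with at least 5 CpGs per region (27028 regions tested), 1807 at a difference of at least 20 points and 2671 by limma on log2 ratios of reads. With 1 embryo left out they numbered 4253 to 5417, of 64734 to 75895 regions tested. None of the 5087 regions tested again was called hypo under any setting. Hypo regions numbered 4 at a coverage of at least 10 reads, 2 with 5 CpGs, 0 at 20 points, 6 with all 12 embryos of 3 ppm in the fit, 34 with KO embryos of normal phenotype, 55 by the binomial test, 31 in embryos with the X-linked share of females, 27 without both litter 42 embryos, 5 by limma on log2 ratios and 11 to 28 with 1 embryo left out. The difference in mean CpG methylation was 2.00 points with reads pooled, reversed to -0.192 over each embryo's own CpGs, and was 2.02 with KO embryos of normal phenotype, 1.82 in embryos with the X-linked share of females, 1.78 without litter 42 and 1.71 to 2.05 with 1 embryo left out; the cause of the reversal was not tested. With litter as a replicate block it was 1.93 points, and 13.7 and 13.9 points at the 30 and 0.1 ppm lists, where 3 litters cannot give an exact p below 0.25; the block changed no other call than those of Notch2 and Ptpn3 among named regions. With 1 embryo left out those lists gave 13.5 to 14.1 and 13.7 to 14.3 points, and no p below 0.0571 is possible. At the 3 ppm hyper regions, leaving out 1 embryo gave 13.4 to 17.1 points on 30 ppm and 16.7 to 17.5 on 0.1 ppm, and the shallow HET library made the latter 17.0 points (exact permutation p = 0.0357). The gap between 30 and 3 ppm in the mean reversed to 0.0495 points when KO replicate 1 of 30 ppm was left out. Of 67 named regions 14 lost their call under at least 1 setting and 0 reversed. The median tested region had 76.5 reads per embryo, summed over its CpGs, and 4 CpGs.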
